A study of Mus musculus with 5 samples.

Results

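The genes of the proteasome and of its assembly were examined in lists of acetylated histone peaks from memory T (TM) cells. The members are the protein-coding genes of the GENCODE annotation of GRCm38 whose symbol starts with Psma, Psmb, Psmc, Psmd, Psme, Psmf or Psmg followed by a digit, which gave 50 of 21938 protein-coding genes. By role, 48 of them encode a subunit, an activator, an inhibitor or an assembly chaperone. The other 2, Psmc3ip, a partner of the meiotic recombination machinery, and Psme2b, a copy of Psme2, carry such a symbol without being listed as subunits here. The immunoproteasome genes Psmb8, Psmb9, Psmb10, Psme1 and Psme2 were set apart. A member was scored as having a promoter peak in a library when a peak lay within 3000 bp of any of its annotated transcription start sites.

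The study asked how loss of the pyruvate dehydrogenase complex, a source of acetyl-CoA from glucose, affects histone acetylation in TM cells. ChIPseq with an antibody against acetylated histones gave 5 libraries, 2 from WT and 3 from TPdh-/- cells, fewer per condition than the study's legend gives. The labels name acetyl K18 for the antibody, while the study's methods describe one against acetylated lysine of histones with no residue named. All were mouse CD8+ T cells. By the study's methods these were OT-I cells, whose transgenic T cell receptor recognises an ovalbumin peptide, activated with that peptide and then cultured with IL-15. In TPdh-/- mice the X-linked Pdha1 gene carries the floxed allele of the B6.129P2-Pdha1tm1ptl/J strain and is cut by a Cre transgene under the Cd4 promoter, which acts in both CD4+ and CD8+ T cells. WT cells are labelled wildtype without further alleles. The mice of the study were young adults of both sexes, and nothing used here says which animals, or how many, went into a library.

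The proteasome is the main protease for ubiquitin-tagged proteins in the cytosol and nucleus. Its 20S core is a barrel of alpha and beta rings with the active sites inside, and the 19S regulator binds ubiquitin, removes it and unfolds the substrate with a ring of ATPases. In lymphocytes and in cells exposed to interferon, Psmb8, Psmb9 and Psmb10 take the places of the catalytic subunits Psmb5, Psmb6 and Psmb7, and the activator of Psme1 and Psme2 can cap the core, which alters the peptides offered on MHC class I. Histone acetylation at promoters is a common mark of active genes.

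The lists differed in length, from 4920 peaks in TPdh-/- 1 and 5419 in TPdh-/- 2 to 8859 in WT 2, 9418 in TPdh-/- 3 and 15962 in WT 1, so WT 1 stood apart and TPdh-/- 3 resembled WT 2. They hold no read numbers, so depth is unknown. Of 8 markers of CD8 T cells, 8, 6, 3, 5 and 6 had a promoter peak in WT 1, WT 2 and TPdh-/- 1, 2 and 3. The part of these markers in the results on proteasome genes was not tested. Cd8b1, Lck and Ptprc had a peak in every library, Cd8a and Cd2 in WT 1 alone, and TPdh-/- 1 had none at Cd3d, Cd3e or Cd3g. No peak lay at the promoters of 3 myeloid markers, 2 NK cell markers or Alb, Hbb-bt and Neurod1, which mark liver, red cells and neurons. Pdha1 had a promoter peak in WT 1 alone, at the 18.4 percentile, and a peak list does not measure its deletion.

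The 250 bases before the start site are shown for 7 members whose peaks the results turn on. Psmb9 and Psmb8 are neighbouring immunoproteasome genes, Psmb5 and Psmb6 encode the subunits that these replace, Psmc1 and Psmd12 carry the motif that was most frequent among members relative to all genes, and Psmd1 had the largest difference between the groups. Sequences are from RefSeq for GRCm38.p6 and run 5′ to 3′ on the strand of the gene. Capitals mark matches, on either strand, to the core of the antioxidant response element (TGACNNNGC), the ETS core (CCGGAAG), the interferon response core (GAAANNGAA) or the STAT palindrome (TTCNNNGAA).
Psmb9, chr17:34187331-34187580, reverse strand: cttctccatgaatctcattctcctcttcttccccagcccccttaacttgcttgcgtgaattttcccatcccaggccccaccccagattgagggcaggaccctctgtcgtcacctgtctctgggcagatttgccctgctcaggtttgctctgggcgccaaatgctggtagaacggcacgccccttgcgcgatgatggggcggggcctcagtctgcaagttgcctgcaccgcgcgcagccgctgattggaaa
Psmb8, chr17:34197945-34198194, forward strand: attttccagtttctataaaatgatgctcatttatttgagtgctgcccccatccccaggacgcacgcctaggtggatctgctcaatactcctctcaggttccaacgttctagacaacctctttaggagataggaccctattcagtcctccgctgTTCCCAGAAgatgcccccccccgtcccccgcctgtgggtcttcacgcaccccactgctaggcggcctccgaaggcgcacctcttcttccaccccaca
Psmb5, chr14:54617996-54618245, reverse strand: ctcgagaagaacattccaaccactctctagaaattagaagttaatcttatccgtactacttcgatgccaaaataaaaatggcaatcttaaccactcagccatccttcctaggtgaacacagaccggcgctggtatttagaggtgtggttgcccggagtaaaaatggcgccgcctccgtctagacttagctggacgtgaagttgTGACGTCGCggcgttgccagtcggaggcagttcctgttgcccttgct
Psmb6, chr11:70525107-70525356, forward strand: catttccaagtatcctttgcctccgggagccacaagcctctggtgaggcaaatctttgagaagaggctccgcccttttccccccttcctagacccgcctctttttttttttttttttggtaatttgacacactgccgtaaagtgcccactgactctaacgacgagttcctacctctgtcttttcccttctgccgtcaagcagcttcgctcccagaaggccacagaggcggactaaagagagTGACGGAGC
Psmc1, chr12:100109952-100110201, forward strand: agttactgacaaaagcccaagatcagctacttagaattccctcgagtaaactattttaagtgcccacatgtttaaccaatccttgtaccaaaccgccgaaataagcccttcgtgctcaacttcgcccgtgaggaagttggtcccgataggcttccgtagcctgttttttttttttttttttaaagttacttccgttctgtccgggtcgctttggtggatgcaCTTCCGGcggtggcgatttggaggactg
Psmd12, chr11:107479278-107479527, forward strand: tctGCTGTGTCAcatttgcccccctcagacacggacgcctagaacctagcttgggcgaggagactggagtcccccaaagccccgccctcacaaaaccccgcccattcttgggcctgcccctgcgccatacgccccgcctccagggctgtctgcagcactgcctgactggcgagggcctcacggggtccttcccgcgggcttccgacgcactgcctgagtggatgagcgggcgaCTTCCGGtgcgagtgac
Psmd1, chr1:86064369-86064618, forward strand: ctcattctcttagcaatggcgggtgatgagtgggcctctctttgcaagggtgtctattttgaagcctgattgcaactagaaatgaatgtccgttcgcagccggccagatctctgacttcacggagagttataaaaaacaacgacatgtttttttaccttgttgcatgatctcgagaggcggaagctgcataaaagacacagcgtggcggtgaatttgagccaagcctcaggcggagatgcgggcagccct
Psmb8 has the palindrome in its matches, Psmb5 and Psmb6 the antioxidant core, Psmc1 the ETS core and Psmd12 both of the last 2, and Psmb9 and Psmd1 have none of the 4. In every library the Psmb9 peak covered all 250 of these bases. Over the same stretch of Psmb5, WT 1 had a peak on all 250 bases and no other library had any, and Psmb6 had no peak.

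In every library, proteasome genes had a promoter peak more often than protein-coding genes at large. The number of members with a promoter peak was 46 in WT 1, 27 in WT 2, 17 in TPdh-/- 1, 16 in TPdh-/- 2 and 32 in TPdh-/- 3. As shares of the 50 members these were 92%, 54%, 34%, 32% and 64%, where 42.1%, 24.8%, 15.3%, 16.5% and 27.9% of all protein-coding genes had one. WT 1 was the highest and the TPdh-/- pair 1 and 2 the lowest, while TPdh-/- 3 lay above WT 2, so the groups overlapped. The WT libraries averaged 73 ± 26.9% (SD, n = 2), against 43.33 ± 17.9% (SD, n = 3) for TPdh-/- (exact permutation test over 10 assignments of the libraries, two-sided, p = 0.4). With so few libraries the test cannot give less than 0.2, and a threshold of 0.05 is out of its reach. Relative to all protein-coding genes of the same list, the excess of members was 49.87 and 29.23 percentage points in WT and 18.71, 15.48 and 36.09 in TPdh-/-, a difference of 16.12 between the group means (exact permutation test, two-sided, p = 0.4). In lists of equal length, made of the 4920 strongest peaks of each library, the members with a promoter peak were 25, 21, 17, 16 and 23 in the same order of libraries. Their excess over all protein-coding genes of these lists was 30.1, 24.9, 18.7, 16.2 and 27.3 percentage points. Without WT 1 the difference in share was 10.67 percentage points and that in excess 5.803.

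**Figure D1:**
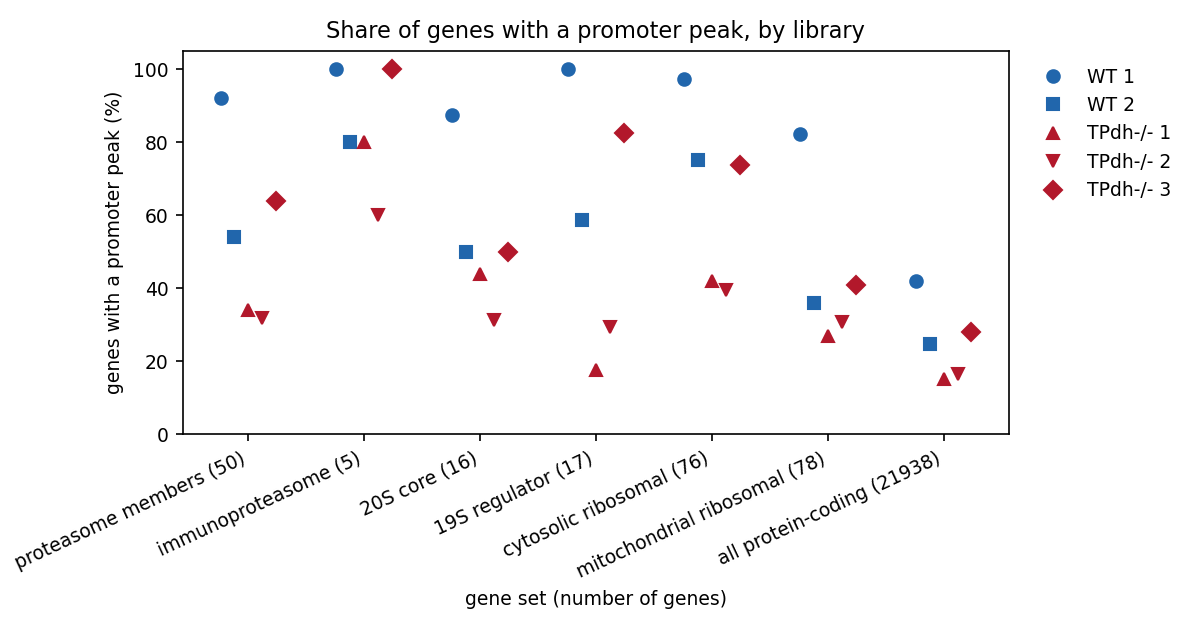
Share of genes with a promoter peak (%, y axis) in each library, for the proteasome members, their main groups and 3 comparison sets (x axis, with the number of genes). Each point is 1 library, blue for WT and red for TPdh-/-, and members run from 32% to 92% where all protein-coding genes run from 15.3% to 42.1%.

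Other genes used by nearly every cell also had a promoter peak more often than protein-coding genes at large, in every library. Of 76 genes for proteins of the cytosolic ribosome, 97.4%, 75%, 42.1%, 39.5% and 73.7% had a promoter peak in WT 1, WT 2 and TPdh-/- 1, 2 and 3. Of 78 genes for proteins of the mitochondrial ribosome, 82.1%, 35.9%, 26.9%, 30.8% and 41% had one. The proteasome lay between them in all 5 libraries. The order of the libraries was alike in the 3 sets, apart from the places of WT 2 and TPdh-/- 3 and of TPdh-/- 1 and 2.

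The member peaks of some libraries were nested in those of others. All 27 members with a peak in WT 2 also had one in WT 1 and in TPdh-/- 3, and all members with a peak in any TPdh-/- library had one in WT 1. Among all protein-coding genes, 98.4% of those of WT 2 were also in WT 1 and 87.4% in TPdh-/- 3. Of those of TPdh-/- 1, 2 and 3, 99.3%, 98.4% and 98.1% were also in WT 1, so this was near the rule for all genes. TPdh-/- 1 and 2 were not nested in each other, with 11 members in both, of 17 and 16. For all protein-coding genes, 75.2% of those of TPdh-/- 1 were in TPdh-/- 2, and 69.6% the other way. A promoter peak in all 5 libraries was found at 11 members, or 22%, where 10.9% of protein-coding genes had that pattern. These were Psma3, Psma6, Psma7, Psmb1, Psmb4, Psmb9, Psme1, Psmd1, Psmd5, Psmg2 and Psmg4. WT 1 alone had a promoter peak at 14 members (28%, against 11.2% of protein-coding genes). Among genes with a peak in WT 1, a peak in all 5 was at 11 of 46 members and 2390 of 9242 protein-coding genes. On the same basis, a peak in WT 1 alone was at 14 of 46 and 2459 of 9242. The pattern of both WT libraries with no TPdh-/- library, shown by 2.21% of protein-coding genes, was seen at 0 members, and so was a peak in TPdh-/- without WT (0.757% of protein-coding genes). A peak in both WT libraries and TPdh-/- 3 alone was found at 6 members (12%, against 4.81% of protein-coding genes). Among genes with a peak in WT 1 that was 6 of 46 members and 1056 of 9242 protein-coding genes. The 4 members Psma8, Psmb6, Psmd10 and Psme2b, or 8%, had no promoter peak in any list, against 56.7% of protein-coding genes.

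**Figure D2:**
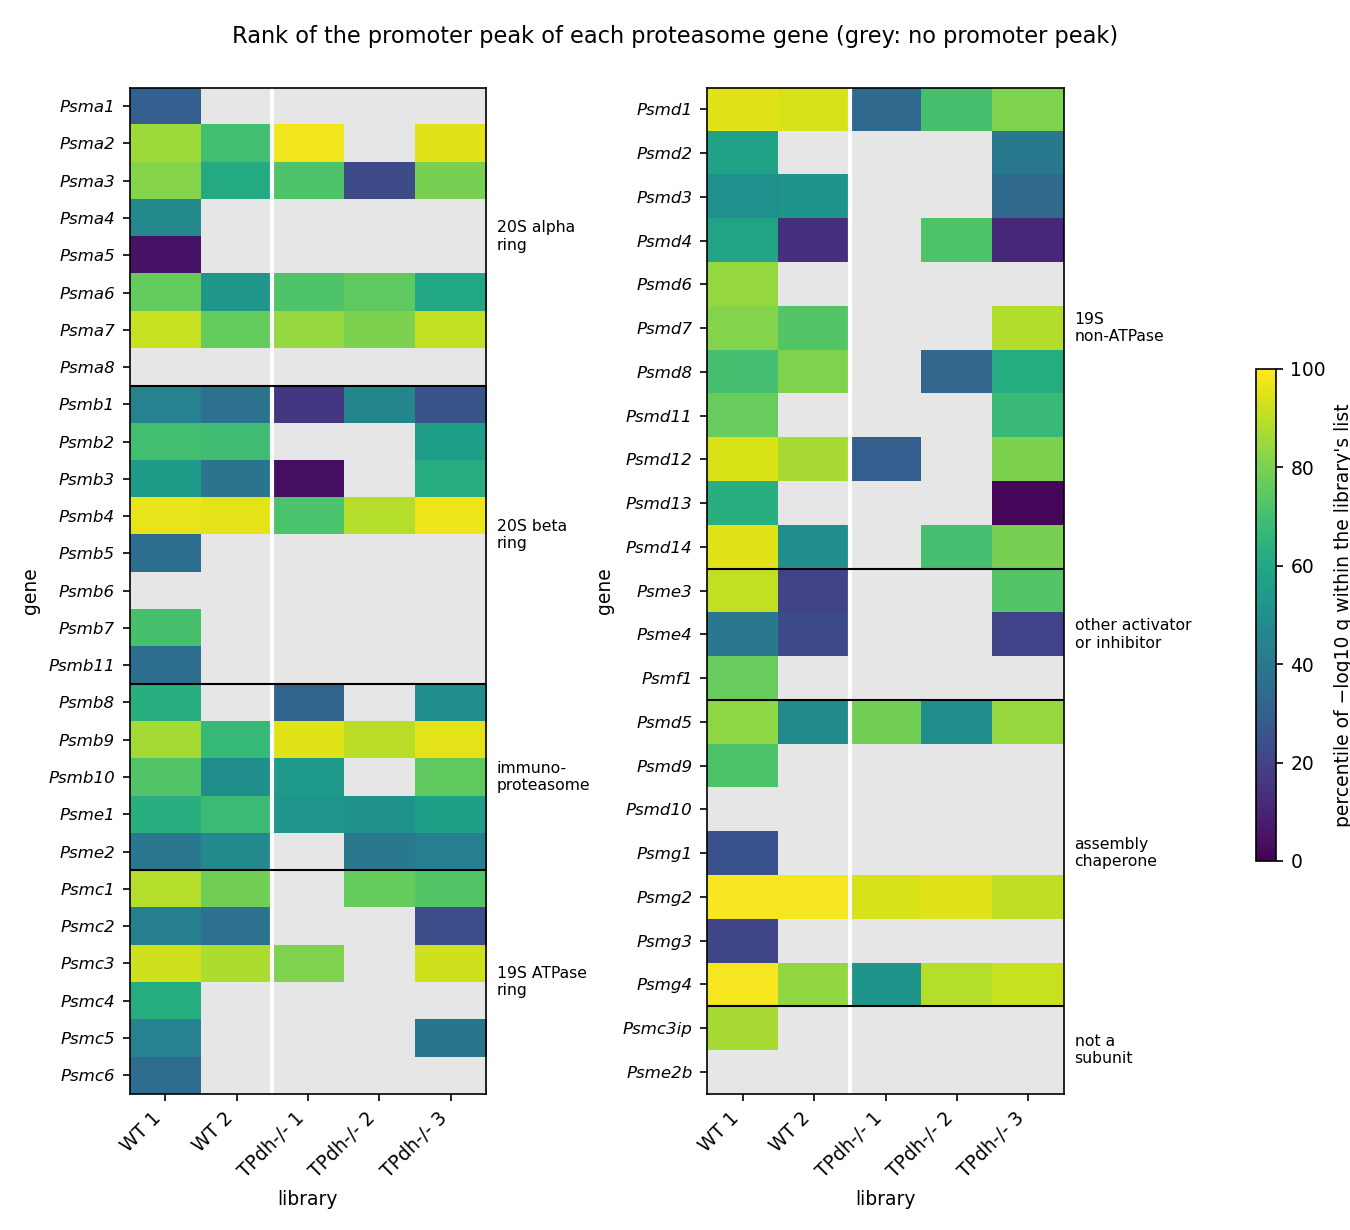
Percentile of the promoter peak by −log10 q within its own list (colour) for each of the 50 members (rows, grouped by role) in each library (columns). Grey means no promoter peak, and the row of Psmg2, from 90.5 to 99.2, has the highest mean, while 14 rows are coloured in WT 1 alone.

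To compare peaks between lists, the strongest promoter peak of a member was given its percentile by −log10 q within the list, from 0 for the weakest to 100 for the strongest. The member peaks sat in the upper part of each list, with a median percentile of 70.8 in WT 1, 67.1 in WT 2 and 71.7, 71.7 and 70.2 in the TPdh-/- libraries. The corresponding medians over all protein-coding genes with a promoter peak were 66.9, 62.9, 60.8, 63 and 63.8. For the 11 members with a peak in every library, the mean percentile was 83.33 and 71.23 in WT and 65.73, 68.95 and 77.54 in TPdh-/-. The groups overlapped, since TPdh-/- 3 lay above WT 2, and differed by 6.541 percentile points (exact permutation test, two-sided, p = 0.4). In the lists of equal length, where 9 members had a peak in all libraries, the sign of this difference turned, to -10.6. Leaving out WT 1, the difference was 0.4917.

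The alpha ring forms the outer gate of the 20S core. Of its 8 genes, 7, 4, 4, 3 and 4 had a promoter peak in WT 1, WT 2 and TPdh-/- 1, 2 and 3. Psma7 had the highest mean rank of the ring, at the 91.6 and 76.4 percentile in WT and 84, 80.4 and 90.8 in TPdh-/-, so it ranked high in all 5 lists. Psma2 was as high where it was present, at 85.3 and 69.7 in WT and 97.7 and 95.4 in TPdh-/- 1 and 3, and had no peak in TPdh-/- 2. Its start site is 75 bp from that of Mrpl32, a mitochondrial ribosomal protein gene on the other strand, and in TPdh-/- 1 the peak lay 4 bp beyond the start site. Psma3 ranked between 61.2 and 81.9 in 4 libraries and at 22.9 in TPdh-/- 2, while Psma6 ranged from 52.8 to 76.3. Psma1, Psma4 and Psma5 had a peak in WT 1 alone, at the 30, 47 and 4.94 percentile. Psma8, which replaces Psma7 in the testis, had no promoter peak, and its nearest peak was between 22695 and 23151 bp away in the 5 lists.

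The beta ring holds the active sites. Of its 8 constitutive or thymic genes, 7, 4, 3, 2 and 4 had a promoter peak in WT 1, WT 2 and TPdh-/- 1, 2 and 3. Psmb4, a subunit without an active site, was highest, at 96.5 and 96 in WT and 71.7, 89 and 97.3 in TPdh-/-. Psmb1 was present in every list but low, between 16.3 and 45.9, and shares its promoter with Tbp, the TATA-binding protein gene, 137 bp away. Psmb2 had peaks at 69.6 and 69.3 in WT, at 55.5 in TPdh-/- 3 and none in the other TPdh-/- libraries. The strongest promoter peak of Psmb3 lay at least 2625 bp from its start site, within the promoter of Pcgf2, in each of the 4 libraries that had one. In WT 1, WT 2 and TPdh-/- 3 Psmb3 had 2 promoter peaks, and the position of the weaker peak is not given here. The genes of the 3 constitutive catalytic subunits were, with Psmb11, the least marked of the ring. Psmb5, the chymotrypsin-like subunit, had a peak in WT 1 alone at the 36 percentile, the same peak that was assigned to its neighbour Psmb11, the thymic form. Psmb7, the trypsin-like subunit, had a peak in WT 1 alone at the 71 percentile. Psmb6, the caspase-like subunit, had none, and its nearest peak was 12602 bp away in WT 1 and between 35901 and 53102 bp away elsewhere.

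The immunoproteasome genes had a promoter peak in most libraries, at 5, 4, 4, 3 and 5 of 5 genes in WT 1, WT 2 and TPdh-/- 1, 2 and 3, where the other 45 members had 41, 23, 13, 13 and 27. Psmb9 lies on chromosome 17 from 34181987 to 34187764, with its start 30 bp from that of Tap1, the peptide transporter gene, so that a single peak serves both. Its peak was at the 86.7 and 67.1 percentile in WT and at 95.3, 89.5 and 95.9 in TPdh-/-. It spanned 2081 and 1850 bp in WT, against 1647, 1771 and 1912 bp in TPdh-/-. Psmb8, from 34197721 to 34201454 on the same chromosome, had a peak at 63.1 in WT 1 and at 32.4 and 48.6 in TPdh-/- 1 and 3. WT 2 and TPdh-/- 2 had none there, and their nearest peaks were 4588 and 9158 bp away. Psmb10, on chromosome 8 from 105935735 to 105938444, had peaks at 72.7 and 49.8 in WT and at 53.7 and 75.7 in TPdh-/- 1 and 3, and none in TPdh-/- 2. TPdh-/- 2 thus lacked both, and 1 WT library lacked Psmb8.

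The activator genes Psme1 and Psme2 lie near each other on chromosome 14. Psme1, from 55578123 to 55581529, was present throughout, at 63.2 and 68 in WT and at 52.4, 51.1 and 56.6 in TPdh-/-, while its fold enrichment, 2.95 and 3.25 in WT and 3.02, 2.92 and 2.93 in TPdh-/-, overlapped between the groups. Psme2, from 55587441 to 55591113, had peaks at 40.1 and 47.1 in WT and at 40 and 43.1 in TPdh-/- 2 and 3. In WT 2 the stronger of its 2 promoter peaks lay between 4845 and 5442 bp downstream of the gene start, within the promoter of Emc9, so this value does not describe the same place as in the others. TPdh-/- 1 had no peak within 9662 bp.

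**Figure D3:**
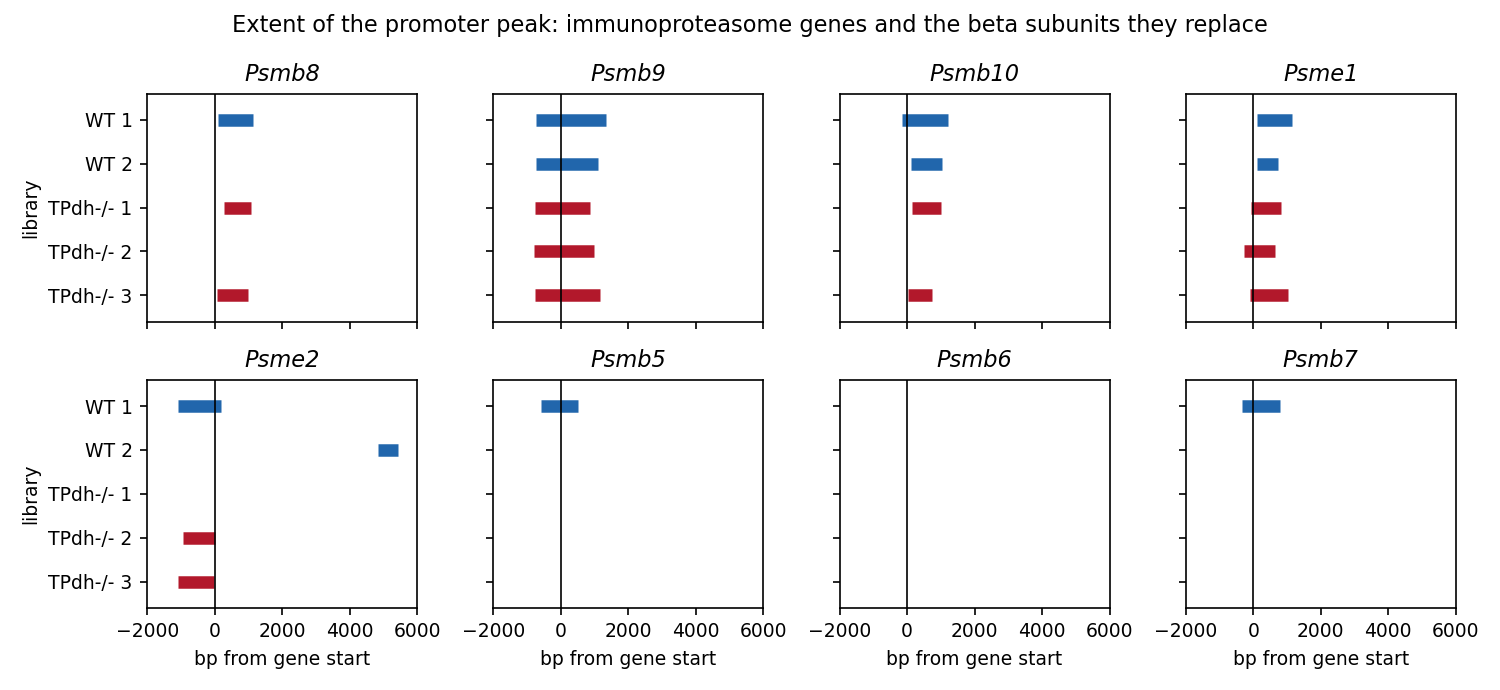
Extent of the strongest promoter peak (bars) in bp from the outermost annotated start of the gene (x axis, negative is upstream) in each library (y axis), for the 5 immunoproteasome genes and for Psmb5, Psmb6 and Psmb7. WT is blue and TPdh-/- red, an empty row means no promoter peak, and Psmb9 has a bar in all 5 rows where Psmb6 has none.

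With absent peaks set to 0, the mean percentile of the immunoproteasome genes exceeded that of the other members by 4.875 and 14.67 in WT and by 29.27, 16.77 and 26.16 in TPdh-/-. The groups did not overlap, and the difference of -14.29 (WT minus TPdh-/-) had a two-sided p = 0.2 by exact permutation, the smallest value possible. Among members with a peak only, the excess was -1.01 and -4.09 in WT and -2.11, -6.78 and 0.938 in TPdh-/-, which overlap. The groups were thus apart only with absent peaks counted.

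In the 19S regulator, peaks were found at all 17 genes in WT 1, at 10 in WT 2 and at 3, 5 and 14 in TPdh-/- 1, 2 and 3. The 16 genes of the 20S core had 14, 8, 7, 5 and 8. As shares, the regulator had 100%, 58.8%, 17.6%, 29.4% and 82.4% and the core 87.5%, 50%, 43.8%, 31.2% and 50%. The regulator was above the core in WT 1, WT 2 and TPdh-/- 3 and below it in TPdh-/- 1 and 2. No test was made of the difference between these groups of genes.

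Of the 6 genes of the ATPase ring, which unfolds substrates and opens the gate, 6, 3, 1, 1 and 4 had a peak. Psmc3 ranked highest, at 92.9 and 87.6 in WT and at 80.8 and 92.8 in TPdh-/- 1 and 3. Psmc1, shown above, was at 89 and 78.3 in WT and at 76.5 and 73.2 in TPdh-/- 2 and 3. Each of them was absent from a different TPdh-/- library, TPdh-/- 2 for Psmc3 and TPdh-/- 1 for Psmc1. Psmc2 had peaks at 43.2 and 37.6 in WT and at 24 in TPdh-/- 3, while Psmc5 had 44.5 in WT 1 and 39 in TPdh-/- 3. Psmc4 and Psmc6 had a peak in WT 1 alone, at 61.9 and 35.7.

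Of the 11 other subunits of the regulator, 11, 7, 2, 4 and 10 had a peak. Psmd1, a large scaffold of the base, was the only one of them with a peak in every library. It was at 95.4 and 94.1 in WT and at 34.1, 70.9 and 80.6 in TPdh-/-. Psmd14, the deubiquitinase that strips ubiquitin from substrates, was at 95.3 and 49.3 in WT and at 70.7 and 79.5 in TPdh-/- 2 and 3. Its lid partner Psmd7 was at 81.4 and 73.4 in WT and at 88.5 in TPdh-/- 3. Psmd12, another lid subunit, was at 94.2 and 86.8 in WT, at 29.8 in TPdh-/- 1 and at 80.4 in TPdh-/- 3. The ubiquitin receptor Psmd4 varied widely within each group, at 58.3 and 13.8 in WT and 72.5 and 11.6 in TPdh-/- 2 and 3. Psmd8 ranged from 33 to 80.8 over 4 libraries, and Psmd3 had 50.3 and 51.8 in WT and 34.7 in TPdh-/- 3. Psmd2, Psmd11 and Psmd13 had a peak in WT 1, at 57.5, 76.9 and 62.6, and in TPdh-/- 3, at 40.4, 67.2 and 1.57. Psmd6 had a peak at 84 in WT 1 and nowhere else.

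The remaining activators and the inhibitor had 3, 2, 0, 0 and 2 of 3 genes marked. Psme3, which encodes the nuclear activator, was at 90.8 and 20.4 in WT and at 73.4 in TPdh-/- 3, and Psme4, an activator linked to the degradation of acetylated histones, was at 40 and 22.6 in WT and at 20.3 in TPdh-/- 3. Psmf1, an inhibitor of the core in vitro, had a peak at 76.7 in WT 1 alone. Of the 7 assembly chaperones, 6, 3, 3, 3 and 3 had a peak, the same 3 genes in the last 4 libraries. Psmg2, part of the dimer that builds the alpha ring, had the highest mean percentile of the members over the 5 libraries, at 99.2 and 98.6 in WT and at 93.8, 95.3 and 90.5 in TPdh-/-. Psmg4 was at 98.5 and 83.9 in WT and at 51.6, 88.7 and 91.5 in TPdh-/-, and Psmd5, a chaperone of the 19S base, was between 47.9 and 84.6. Psmg1, Psmg3 and Psmd9 had a peak in WT 1 alone, at 25, 20.9 and 72.2, and Psmd10 had none. Of the genes that are not subunits, Psmc3ip had a peak in WT 1 alone, at 87.1, and Psme2b had none.

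Fold enrichment of the called peak could be compared for the 11 members with a peak in every library. The fold enrichment that the peak caller gave was put on the log2 scale and centred in each library on the median of the 2390 protein-coding genes with a promoter peak in all 5, since lists are not normalised to each other. The median of the members was 0.16 and 0.14 in WT and 0.07, 0.11 and 0.17 in TPdh-/- (exact permutation test, two-sided, p = 0.6). Both WT libraries were above all TPdh-/- libraries for 2 of the 11 members, Psmd1 and Psmg2, as for 11% of all genes tested, and below them for 2, Psmb9 and Psma6, as for 12.8%. The other 7 overlapped, and 5 of the 11 had the higher mean in WT. The median of their differences was -0.03, against -0.01 over all genes tested, of opposite sign to the difference between the group means of the medians, 0.03.

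Psmd1 differed most. Its fold enrichment was 4.12 and 4.13 in WT and 2.83, 3.19 and 3.42 in TPdh-/-, a difference of 0.35 (SE 0.10) on the centred log2 scale, WT higher. The limma adjusted p was 0.371, by Benjamini-Hochberg over 2390 genes. The fold enrichment of Psmg2 was 4.08 and 4.21 in WT and 3.44, 3.54 and 3.35 in TPdh-/-, a difference of 0.23 (SE 0.10, limma adjusted p = 0.559). Psmb9 went the other way, with 2.69 and 2.5 in WT and 3.21, 2.83 and 2.96 in TPdh-/-, a difference of -0.25 (SE 0.10, limma adjusted p = 0.524). Psmb4 had 4.12 and 4.13 in WT and 3.12, 3.45 and 4.05 in TPdh-/-, where TPdh-/- 3 overlapped WT on the centred scale. None of the 2390 genes passed an adjusted p of 0.05 in limma, that is 0% with WT higher and 0% with WT lower, and 188 had an unadjusted p under 0.05, 3 of them members.

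**Figure D4:**
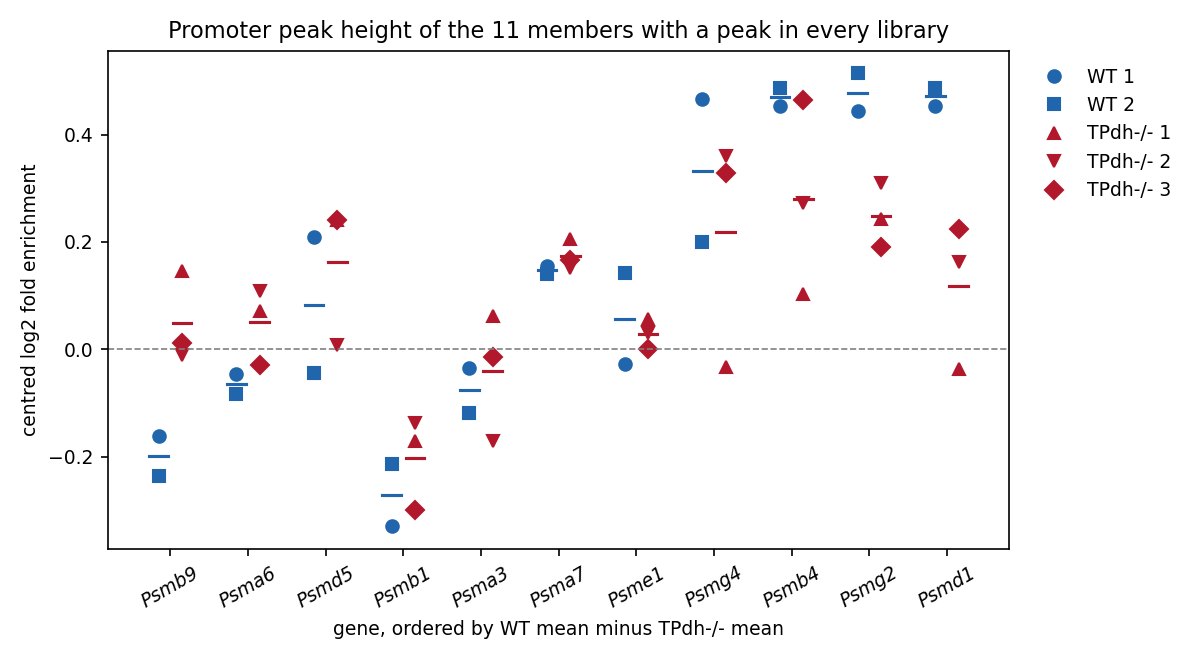
Centred log2 fold enrichment of the promoter peak (y axis, 0 is the median of the 2390 genes) for the 11 members with a peak in every library (x axis, ordered by WT mean minus TPdh-/- mean). Points are libraries, blue for WT and red for TPdh-/-, and bars are group means. Psmb9 is lowest in WT relative to TPdh-/- and Psmd1 highest.

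The strongest promoter peak covered a start site of the member in 44 of 46, 24 of 27, 12 of 17, 13 of 16 and 29 of 32 cases in WT 1, WT 2 and TPdh-/- 1, 2 and 3. Their median width was 1112 and 939 bp in the WT lists and 726, 881 and 999 bp in the others, in each library below the median of all protein-coding genes with a promoter peak, which was 1186, 987, 844, 905 and 1025 bp. In 16, 10, 8, 7 and 12 cases the same peak also lay in the promoter of another protein-coding gene, and its signal cannot be divided between them. A start site of another protein-coding gene on the opposite strand within 1000 bp was found for 13 members (26%), against 12.3% of all protein-coding genes. The closest were Psmb9 with Tap1 at 30 bp and Psmc2 with Dnajc2 at 32 bp. Psma7 and Psmg2 shared their peak in every library with Ss18l1, 76 bp away, and Cep76, 263 bp away.

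The other genes of the pathway are given by their counts, in the order WT 1, WT 2 and TPdh-/- 1, 2 and 3. Of 9 partners of the particle, 8, 5, 5, 5 and 6 had a peak, and Pomp, the chaperone of beta ring assembly, the small subunit gene Sem1, the deubiquitinase Uchl5, Txnl1 and Zfand5 had one in every library. Pomp was at the 85.5 and 73 percentile in WT and at 34.6, 67.4 and 36.1 in TPdh-/-. Of 6 genes for ubiquitin and its activation, 6, 4, 4, 4 and 5 had a peak, and Ubb, which encodes ubiquitin in tandem, stayed between 96.8 and 98.8 in all 5 libraries. Of 7 genes for shuttles that carry substrates to the proteasome and for the unfoldase Vcp, 4, 2, 1, 1 and 1 had a peak.
Of 5 regulators of proteasome genes, 5, 4, 2, 2 and 4 had a peak. Nfe2l1, which raises proteasome gene transcription when the particle is blocked, had peaks at 47.5 and 44.8 in WT and none in TPdh-/-. Nfe2l2, its relative in the oxidative stress response, was between 65.2 and 97.2 in all libraries, and Irf1, an interferon regulator, was at 73.8 and 77 in WT and 82.1 and 48.5 in TPdh-/- 2 and 3. Of 6 genes of class I antigen processing, 6, 6, 5, 5 and 6 had a peak. Tap1 shares its peak with Psmb9, and Tapbp, Erap1, B2m and Nlrc5 had their own in every library, while Tap2 was absent from TPdh-/- 1 and 2.

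Promoter sequences were matched for 42 of the 50 members, not for Psma8, Psmb1, Psmb2, Psmb7, Psmc3, Psmd3, Psmd7 and Psmg2. In the 250 bases before the start site, the ETS core (CCGGAAG) was present in 13 of the 42 members (31%) and in 10.2% of 17492 protein-coding genes. It was in 8 of 14 genes of the 19S regulator, as in Psmc1 and Psmd12 above, in 1 of 12 of the 20S core and in 0 of 5 of the immunoproteasome. The antioxidant core (TGACNNNGC) was in 5 members (11.9%, against 12% of all genes), Psmb5, Psmb6, Psmc6, Psmd9 and Psmd12. Of 9 matched members with a peak in all 5 libraries 0 had it, and of 16 with a peak in at most 1 library 4 had it. The share among all genes with these peak patterns was not computed. The interferon response core (GAAANNGAA) was in 3 members (7.14%, against 7.95%), none of them of the immunoproteasome. The STAT palindrome (TTCNNNGAA) was in Psmb8 and Psmg1 (4.76%, against 7.65%), in Psmb8 from base -97 to -89.
The CCAAT box (CCAAT) was in 35.7% of members and 39.5% of genes, the GC box (GGGCGG) in 52.4% and 45.8%, and TATAAA in 9.52% and 13.7%. Among the 9 matched members with a peak in all 5 libraries and the 16 with one in at most 1, the ETS core was in 1 and 4. The interferon response core was in 0 and 1 and the STAT palindrome in 0 and 1. The CCAAT box was in 4 and 4, the GC box in 5 and 8 and TATAAA in 2 and 1. All motifs were searched on both strands, and matches of different motifs shared bases in 4 members, Psma6, Psmc2, Psmd9 and Psme4. These matches describe letters in a window and not bound sites. The highest value was taken for a gene with more than 1 window. The median GC content was then 58% in members and 56.4% in all genes, and the median ratio of observed to expected CpG was 0.73 and 0.574. That ratio was 0.571 in the 9 matched members with a peak in all 5 libraries and 0.74 in the 16 with one in at most 1.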

How the data were processed

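ChIPseq peaks of 5 libraries (2 WT, 3 TPdh-/-) were analysed. The authors aligned reads to GRCm38/mm10 with BWA 0.7.17, kept uniquely mapping reads with SAMtools 1.15.1, dropped reads in blacklisted regions and ran MACS2 2.2.6 in broad mode on each library, with no input control named. The deposited lists give each peak a fold enrichment, which is a ratio over the background that MACS2 estimated, −log10 p and q values by the authors' caller, and a score from the authors that was not used here. Read-level differential analysis was not repeated. Depth is unknown, and nothing says that libraries came from separate animals, so p-values measure only the spread between these libraries.

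The strongest promoter peak by −log10 q stood for a gene, with GENCODE start sites (141730 transcripts of 55413 genes). Groups were compared by exact permutation tests and limma 3.58.1 in R 4.3.3, with scipy 1.17.1, pandas 2.3.3 and numpy 2.4.6 under Python 3.11.15, after recovery was tested on simulated data. Values in every library were due for the immunoproteasome genes, Psmb5, Psmb6 and Psmb7, the highest and lowest member by mean rank in each role, members with a peak in both WT and at most 1 TPdh-/- library, and members called by limma. Other members were named to account for all 50. The members, lists and motifs were chosen with earlier results of these data known. Alternatives were thresholds on −log10 q of 2 and 5, equal list lengths, a 1000 bp promoter, coding transcripts only, the nearest start site only, the peak of highest fold, uncentred fold, members in a listed role only, a replicate block and each library left out.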

Additional observations from a re-analysis of the deposited data

How the results depend on the processing

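No group difference could pass 0.05 under any alternative, so only values and signs were compared. The difference in mean percentile of member peaks turned to -10.6 with lists of equal length. That setting keeps only the stronger peaks of the longer lists and leaves 9 members in all lists. The same difference was 32.21 when peaks under a −log10 q of 5 were left out, which leaves 1 member in all lists. The difference in median centred log2 fold, 0.03187, turned to -0.009778 with the nearest start site only, which leaves 8 members, and to -0.02351 without TPdh-/- 1. It was 0.251 with a −log10 q of at least 5, 0.005668 with equal lists and 0.07109 uncentred. With lists of equal length the difference in share of members was 8.667 percentage points and the excess over all genes 6.751, against 29.67 and 16.12, and members with a peak were 25, 21, 17, 16 and 23. The immunoproteasome difference was between -24.07 and -9.967 over the alternatives that kept all libraries.

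Leaving out each library in turn, the difference in share ranged from 10.67 to 48.67, the excess from 5.803 to 26.44, the mean percentile from 0.4917 to 12.59, the median centred log2 fold from -0.02351 to 0.05753 and the immunoproteasome difference from -19.19 to -9.398. The lowest share, excess and percentile were without WT 1, and the highest were without WT 2.

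Of all genes tested, limma called 0 at first, 1 with a −log10 q of at least 5 and 0 to 4 with a library left out, 4 without WT 1 and 4 without WT 2, where the lone WT library is assumed to vary like the others. The cause was not tested. No member was called under any alternative.

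Replicate numbers 1 and 2 occur in both groups, but nothing states that they pair libraries, and deviations from the group means over 2390 genes correlated at -0.108 for WT 1 with TPdh-/- 1 and at 0.0645 for WT 2 with TPdh-/- 2. In a fit with the replicate block, made without TPdh-/- 3, the differences were 40 for share, 22.46 for excess, 9.939 for percentile, 0.05753 for median centred log2 fold and -13.25 for the immunoproteasome, and limma called 4 genes, none a member. Depth, which the lists do not give, limits how far an absent peak can be read as absent acetylation.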
